A study of Rattus norvegicus with 18 samples.

Results

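Heterotrimeric G protein subunits, regulators of G protein signaling (RGS) and G protein-coupled receptor kinases (GRK) were followed in the basolateral amygdala (BLA) of rats that lost, kept or never had environmental enrichment. The genes were taken by name from the protein-coding rows of the deposited expression table: the alpha, beta and gamma subunits, the numbered Rgs genes apart from Rgs9, and Grk2 to Grk6. The names fit 56 rows, and 54 of them had a mean above 1 over the 18 libraries, out of 18172 tested genes. The rows left out by this minimum were Gng11 (mean 0.476) and Rgs9bp (mean 0.815). Gnas filled 2 rows with separate identifiers, so the 54 rows carried 53 symbols.

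The rats were adult male Sprague-Dawley rats in 3 groups of 6. Enrichment removal (ER) rats were first enriched and then moved to single housing, enriched (EE) rats stayed enriched, and rats labelled standard housing (SH) lived singly throughout. Enrichment was given in the active part of the day in a group cage with other rats, so a spread between cages is not covered by tests that take rats as the units. BLA micropunches from both hemispheres were taken at the end of the removal period, and polyadenylated RNA of each rat gave 1 library. EEvSH asks what enrichment did, and ERvSH what enrichment followed by its loss did. ERvEE asks how rats that lost enrichment differed from rats that kept it. At sampling ER rats lived singly, whereas EE rats still shared a group cage in the active part of the day. Loss and present housing therefore cannot be told apart in ERvEE. The deposited unit is the read count of a gene over the size factor of its library, called normalized reads here. They are not corrected for gene length, so each gene was compared between rats and not with other genes.

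A G protein couples a receptor in the membrane to enzymes and channels inside the cell. The receptor makes the alpha subunit exchange GDP for GTP, alpha and the beta-gamma pair separate, and both act on effectors such as adenylyl cyclase, phospholipase C and potassium channels. RGS proteins speed up GTP hydrolysis by alpha and so shorten the signal, whereas GRKs phosphorylate the active receptor and prepare it for arrestin. In the amygdala these proteins carry the signals of dopamine, serotonin, noradrenaline, opioid, endocannabinoid and metabotropic glutamate receptors.

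All 6 excitatory neuron markers of the BLA were above the minimum, and their sums were 61945 to 73136 normalized reads in ER, 48289.5 to 78609 in EE and 52429 to 67979 in SH. Recovered reads per library were 20171558 to 23450276 in ER, 17753797 to 21931492 in EE and 18688872 to 22177364 in SH. SH 3 and SH 1 stood apart, at −137 and −45.1 on the first principal component, where all other libraries lay between −0.220 and 21.7. SH 3 held the lowest value of the 18 libraries in 17 of the 54 genes, and SH 1 in 7. Over all tested genes, SH 3 was the lowest library in 27.0% and SH 1 in 14.5%. Many of the fold changes against SH are therefore also given without this pair.

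None of the 54 genes passed an adjusted p of 0.05 (limma, Benjamini-Hochberg over all tested genes) in EEvSH, ERvSH or ERvEE, where 0% of all genes passed in each comparison. The smallest adjusted p of a member was 0.749 in EEvSH, 0.567 in ERvSH and 1.00 in ERvEE. At an unadjusted p under 0.05 stood 3 members in EEvSH, 6 in ERvSH and 3 in ERvEE. edgeR and DESeq2 on recovered reads called 0 of the 54 genes as well, although DESeq2 called 1 gene of the whole table in EEvSH and 2 each in ERvSH and ERvEE. In none of the 3 comparisons did a member have all rats of one group above all rats of the other. Over all genes that held for 0.171% in EEvSH (0.0936% higher and 0.077% lower), 0.292% in ERvSH (0.116% higher and 0.176% lower) and 0.215% in ERvEE (0.0936% higher and 0.121% lower). The values that follow are therefore descriptions of where the rats lay, not called differences.

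In EEvSH most members had a positive fold change. The log2 fold change was positive in 42 of 54 members (77.8%), against 53.7% of all genes, with a median of 0.099 over the members and 0.018 over all genes. At an unadjusted p under 0.05 were Gnb1, Gnb4 and Grk2, all higher in EE, a share of 5.56% of the members beside 5.87% of all genes (3.35% higher and 2.53% lower). Without SH 1 and SH 3, 40 of 54 members were still positive with a median of 0.080, where the median of all genes was −0.0016 and 49.6% were positive. The members at an unadjusted p under 0.05 were then both Gnas rows, Gng14 and Gngt2, all higher in EE, beside 8.35% of all genes. Genes of one tissue punch move together, so this count is a description of the list and not a test.

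In ERvSH the direction was mixed, with 29 of 54 members positive (53.7%, all genes 51.8%) and a median of 0.034, and without SH 1 and SH 3 with 32 of 54 positive and a median of 0.056. The 6 members at an unadjusted p under 0.05 were all higher in ER (11.1% of the members, against 7.89% of all genes, 4.57% higher and 3.32% lower). Of these, 5 were alpha subunits, Gnao1, Gnai1, Gnaz, Gna14 and Gnaq, and the other was Gnb1. Without SH 1 and SH 3 5 were higher (Gnao1, Gna14, the main Gnas row, Rgs14 and Gngt2) and Gng4 was lower, beside 6.45% of all genes.

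In ERvEE, lost against kept enrichment, 23 of 54 members were positive (42.6%, all genes 50.9%) and the median was −0.039. The 3 members at an unadjusted p under 0.05, Gng4, Rgs1 and Gna12, were all lower in ER (5.56% of the members, against 3.66% of all genes, 1.38% higher and 2.28% lower). The spread estimate is shared by all 18 libraries, so this comparison also moved when SH 1 and SH 3 were left out, to 7 lower (Gnal, Gng4, Gna12, Gna13, Rgs10, Rgs1 and Gng14) and 1 higher (Gnaz), beside 7.84% of all genes.

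**Figure D1:**
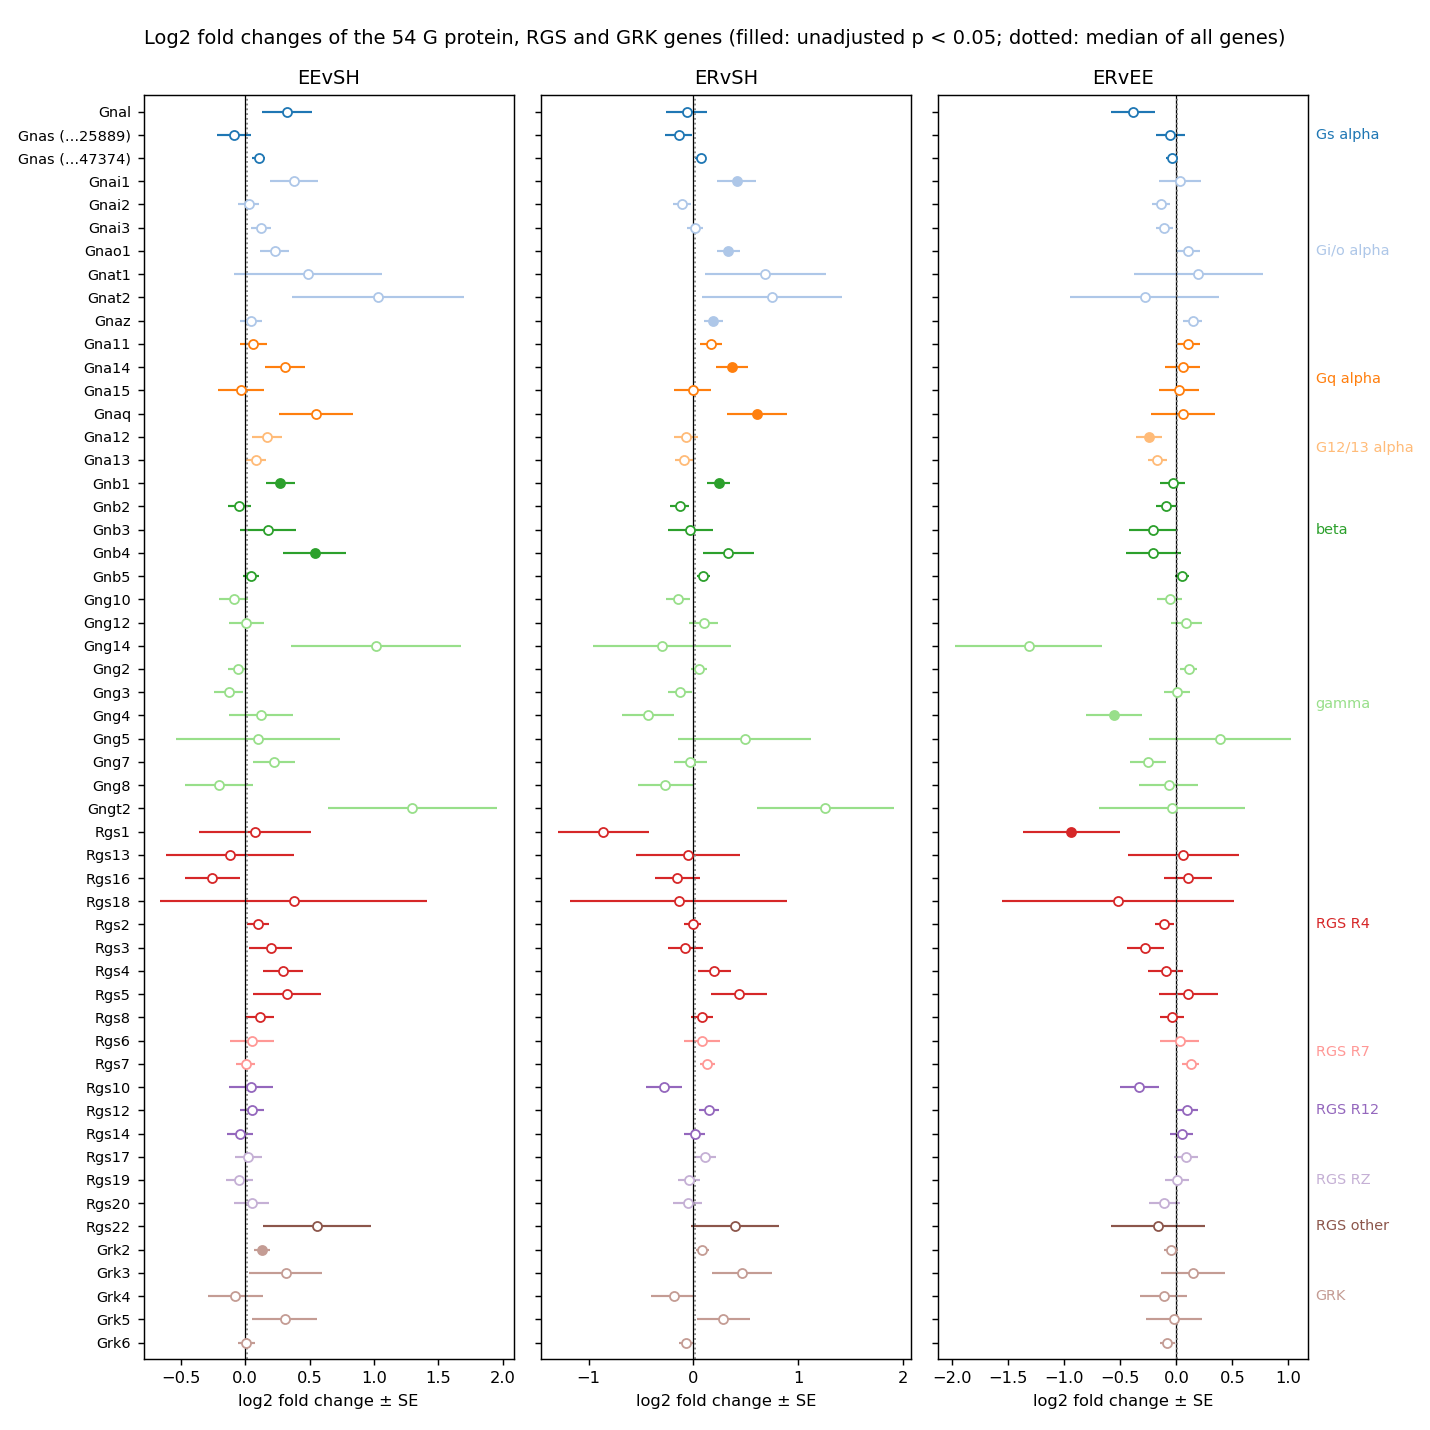
Log2 fold change with its standard error (x axis) of each of the 54 genes in EEvSH, ERvSH and ERvEE, ordered by role on the y axis and colour; filled points have an unadjusted p under 0.05 and the dotted line is the median of all tested genes. Most points lie right of zero in EEvSH (42 of 54), the filled alpha subunits lie right of zero in ERvSH, and the 3 filled points of ERvEE lie left of zero.

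Alpha subunits of the Gi/o class inhibit adenylyl cyclase or act mainly through their beta-gamma partners. The median log2 fold change over its 7 members was 0.33 in ERvSH, 0.23 in EEvSH and 0.030 in ERvEE. With SH 1 and SH 3 left out, the median was 0.12 in ERvSH and 0.077 in EEvSH. These medians count Gnat1 and Gnat2, which were near the floor. Their log2 fold changes were the largest of the class, 0.68 and 0.75 in ERvSH and 0.49 and 1.03 in EEvSH. Both medians with all rats are therefore higher than those of the other members alone. Gnao1 encodes Go alpha, the most abundant G protein alpha subunit of brain membranes. Its normalized reads had a lowest, median and highest value of 8652, 9331 and 9703 in ER rats, 7946, 8657 and 9335 in EE rats and 5065, 7914 and 9098 in SH rats. In 4 of 6 ER rats Gnao1 lay above every SH rat, whereas SH 3, SH 1 (6105) and SH 2 (7498) lay below every ER and EE rat. The limma log2 fold change of Gnao1 was 0.33 (SE 0.11, adjusted p = 0.567) in ERvSH, 0.23 (SE 0.11) in EEvSH and 0.10 (SE 0.11) in ERvEE. Without SH 1 and SH 3 it was 0.13 (SE 0.061) in ERvSH and 0.028 (SE 0.061) in EEvSH.

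Because Gnao1 had the smallest p of all members in ERvSH, its promoter is shown beside those of Gng4 and Gnb1, which had the smallest p in ERvEE and EEvSH. The sequences are the 250 bases before the annotated start of each gene, 5′ to 3′ on the strand of the gene, from RefSeq on build GRCr8. The Gnao1 stretch is chr19:11198438-11198687 on the minus strand, Gng4 is chr17:93432945-93433194 on the plus strand and Gnb1 is chr5:171378113-171378362 on the plus strand. Capitals mark matches on either strand to 4 motifs, the cAMP response element TGACGTCA, the GC box GGGCGG, the TATA box TATAAA and the E-box CACGTG.
Gnao1: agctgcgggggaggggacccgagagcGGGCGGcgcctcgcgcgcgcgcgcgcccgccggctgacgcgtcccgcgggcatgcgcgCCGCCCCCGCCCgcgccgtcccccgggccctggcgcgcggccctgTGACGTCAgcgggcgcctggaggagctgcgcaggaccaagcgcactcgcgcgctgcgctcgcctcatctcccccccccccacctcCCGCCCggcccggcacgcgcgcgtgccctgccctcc
Gng4: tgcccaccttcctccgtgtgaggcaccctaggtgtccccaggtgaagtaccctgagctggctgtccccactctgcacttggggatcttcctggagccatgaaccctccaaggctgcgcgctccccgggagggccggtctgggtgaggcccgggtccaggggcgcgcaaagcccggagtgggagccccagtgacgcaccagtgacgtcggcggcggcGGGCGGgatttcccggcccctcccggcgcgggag
Gnb1: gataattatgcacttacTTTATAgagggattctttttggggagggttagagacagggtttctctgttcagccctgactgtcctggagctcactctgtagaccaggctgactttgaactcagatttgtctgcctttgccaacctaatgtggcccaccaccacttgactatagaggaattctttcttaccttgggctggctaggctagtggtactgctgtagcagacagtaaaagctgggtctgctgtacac

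The full cAMP response element, a palindrome, was found in Gnao1 alone among the 43 members with a listed promoter, searched over 300 bases that include 50 after the start. It was present in 1.83% of all 33469 listed promoters. The GC box was found in 25 of the 43 members, against 33.1% of all promoters, and the TATA box in 5 (Gnas, Gnb1, Rgs1, Rgs3 and Rgs4), against 14.2%. The E-box, also a palindrome, was found in 3 (Gnai1, Rgs7 and Rgs19), against 6.42%. The median GC content was 64.0% over the member promoters and 51.7% over all promoters. These are matches of letters on either strand and at any position in the 300 bases, and no binding was measured. For Gnas and Gnb1 the TATA box match was on the reverse strand (TTTATA), in Gnb1 near the end of the stretch far from the start. Such a match need not be a working TATA box.

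Gnai1, which encodes a Gi alpha subunit, had 1505, 1733 and 1873 normalized reads (lowest, median, highest) in ER rats, 1446, 1712 and 1813 in EE rats and 566, 1464 and 1747 in SH rats. All groups overlapped, and SH 3 was far below the other SH rats, the next of which was SH 1 at 1312. Its log2 fold change was 0.41 (SE 0.19, adjusted p = 0.567) in ERvSH and 0.38 (SE 0.19) in EEvSH, and without SH 1 and SH 3 it was 0.12 (SE 0.080) and 0.091 (SE 0.080). Gnaz encodes Gz alpha, a neuronal subunit that inhibits adenylyl cyclase and hydrolyses GTP slowly. Its values were 1771, 1838 and 1930.2 in ER rats, 1516, 1628 and 1911 in EE rats and 1319.5, 1688 and 1894 in SH rats. The ER rats formed the tightest group, and in EE only EE 6 reached their range. The log2 fold change of Gnaz was 0.19 (SE 0.087, adjusted p = 0.567) in ERvSH and 0.15 (SE 0.087, adjusted p = 1.00) in ERvEE. Leaving out SH 1 and SH 3 took Gnaz to 0.051 (SE 0.062) in ERvSH and gave an SE of 0.055 (adjusted p = 0.629) in ERvEE.

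The other members of the class lay closer together. Gnai2, the Gi alpha subunit of many cell types including glia, had a log2 fold change of −0.14 (SE 0.083) in ERvEE and 0.027 (SE 0.083) in EEvSH, where leaving out the pair gave 0.10 (SE 0.082). Gnai3 stood at 918 ± 64.0 in ER, 989.6 ± 86.6 in EE and 909 ± 88.8 in SH (mean ± SD, n = 6 each). The transducins Gnat1 and Gnat2, the alpha subunits of rod and cone photoreceptors, were near the floor with means of 8.53 and 1.55 over all rats. Their fold changes rest on few reads and have standard errors of 0.58 and 0.67.

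Alpha subunits of the Gq class activate phospholipase C beta, and over the 4 members the log2 fold change had a median of 0.27 in ERvSH and 0.19 in EEvSH, and of 0.18 in ERvSH and 0.13 in EEvSH without SH 1 and SH 3. Gnaq had 1153, 1449 and 1493 normalized reads (lowest, median, highest) in ER rats, 1044, 1340.2 and 1513 in EE rats and 251, 1209 and 1416 in SH rats. SH 3 (251) and SH 1 (805) lay below every ER and EE rat, and the remaining SH rats lay among them. In ERvSH the log2 fold change was 0.61 (SE 0.29, adjusted p = 0.567), the largest of the members with a mean of at least 50, and in EEvSH 0.55 (SE 0.29). With SH 1 and SH 3 left out these values were 0.11 (SE 0.093) and 0.052 (SE 0.093).

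Gna14, a further Gq class subunit, depended less on this pair. It had 82.7, 100.1 and 124 normalized reads (lowest, median, highest) in ER rats, 83.4, 98.5 and 112 in EE rats and 64.5, 74.3 and 106 in SH rats. SH 2, SH 3, SH 5 and SH 6 lay below every ER and EE rat, while SH 1 (90.6) and SH 4 (106) lay among them. For Gna14 the log2 fold change was 0.37 (SE 0.16, adjusted p = 0.567) in ERvSH, 0.31 (SE 0.16, adjusted p = 0.749) in EEvSH and 0.057 (SE 0.16) in ERvEE. Without SH 1 and SH 3 it was 0.35 (SE 0.17, adjusted p = 0.769) in ERvSH and 0.30 (SE 0.17) in EEvSH, nearly as large as with all rats. Gna11 lay at 953 ± 52.7 in ER, 888 ± 72.4 in EE and 862 ± 175 in SH. Gna15, known mainly from blood cells, lay at 138 ± 10.2 in ER, 138 ± 33.0 in EE and 143 ± 44.3 in SH. With all rats its log2 fold change in ERvSH was −0.0074 (SE 0.18). Its 2 highest SH values, above every ER rat, were those of SH 1 (217) and SH 3 (178). Without them every ER rat lay above every remaining SH rat (limma log2 fold change 0.24, SE 0.15, adjusted p = 0.802). That separation came from leaving out these rats, and under that setting it held for 0.627% of all genes.

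Gs class subunits stimulate adenylyl cyclase. Gnas encodes Gs alpha, and its main row (ENSRNOG00000047374) had the lowest coefficient of variation of the members, 4.76% over the 18 rats. It had 9060.1, 9395 and 9749 normalized reads (lowest, median, highest) in ER rats, 8893, 9774 and 10287 in EE rats and 8575, 8818 and 9499 in SH rats. SH 3 and SH 1 held the 2 highest SH values of this row, in contrast to Gnao1 and Gnaq. Gs alpha had a log2 fold change of 0.11 (SE 0.051, adjusted p = 0.749) in EEvSH and 0.067 (SE 0.051) in ERvSH. With SH 1 and SH 3 left out, every EE rat and every ER rat lay above the 4 remaining SH rats. Under that setting, groups without overlap made up 1.65% of all genes in EEvSH and 1.49% in ERvSH, and this row was the 1 member in EEvSH and, with Gna15, 1 of 2 in ERvSH. The log2 fold changes were then 0.15 (SE 0.049, adjusted p = 0.445) in EEvSH and 0.11 (SE 0.049, adjusted p = 0.769) in ERvSH. The second Gnas row (ENSRNOG00000025889) is not described further in the sources used here, and reads may be divided between the rows. It had a mean of 1013 ± 82.9 in ER, 1050.0 ± 62.3 in EE and 1149 ± 332 in SH, with 1665 in SH 3 and 1470.5 in SH 1.

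Gnal encodes Golf alpha, the stimulatory subunit of olfactory and striatal neurons. It had 648, 934 and 1109.9 normalized reads (lowest, median, highest) in ER rats, 836, 1283 and 1327 in EE rats and 477, 965 and 1328 in SH rats. Apart from EE 6 (836), every EE rat (1149.7 or more) lay above every ER rat, and in SH the lowest was SH 3. Gnal had a log2 fold change of −0.39 (SE 0.19, adjusted p = 1.00) in ERvEE, 0.32 (SE 0.19) in EEvSH and −0.065 (SE 0.19) in ERvSH. Leaving out SH 1 and SH 3 put Gnal at 0.094 (SE 0.15) in EEvSH and −0.29 (SE 0.15, adjusted p = 0.78) in ERvSH. The fold change in ERvEE does not use the SH values, but its error does, and without SH 1 and SH 3 it had an SE of 0.13 (adjusted p = 0.629).

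G12/13 alpha subunits act on guanine nucleotide exchange factors that reach the actin cytoskeleton. Gna12 had 3393, 3872 and 4377 normalized reads (lowest, median, highest) in ER rats and 3433, 4639.5 and 5731 in EE rats, and SH rats had 3599.9, 3759.6 and 5005. EE 1, EE 2, EE 3 and EE 5 lay above every ER rat and EE 6 lay near the lowest ER rat. Its log2 fold change was −0.25 (SE 0.12, adjusted p = 1.00) in ERvEE, 0.17 (SE 0.12) in EEvSH and −0.074 (SE 0.12) in ERvSH, the last at −0.023 (SE 0.12) without SH 1 and SH 3. Gna13 showed a similar order, with 1160.4, 1226 and 1502 in ER rats, 1195, 1472 and 1571 in EE rats and 1191, 1350.2 and 1499.6 in SH rats. Apart from ER 2 and EE 6, every ER rat lay below every EE rat. The Gna13 log2 fold change was −0.17 (SE 0.083, adjusted p = 1.00) in ERvEE and 0.081 (SE 0.083) in EEvSH, or 0.021 (SE 0.084) in EEvSH without the pair.

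**Figure D2:**
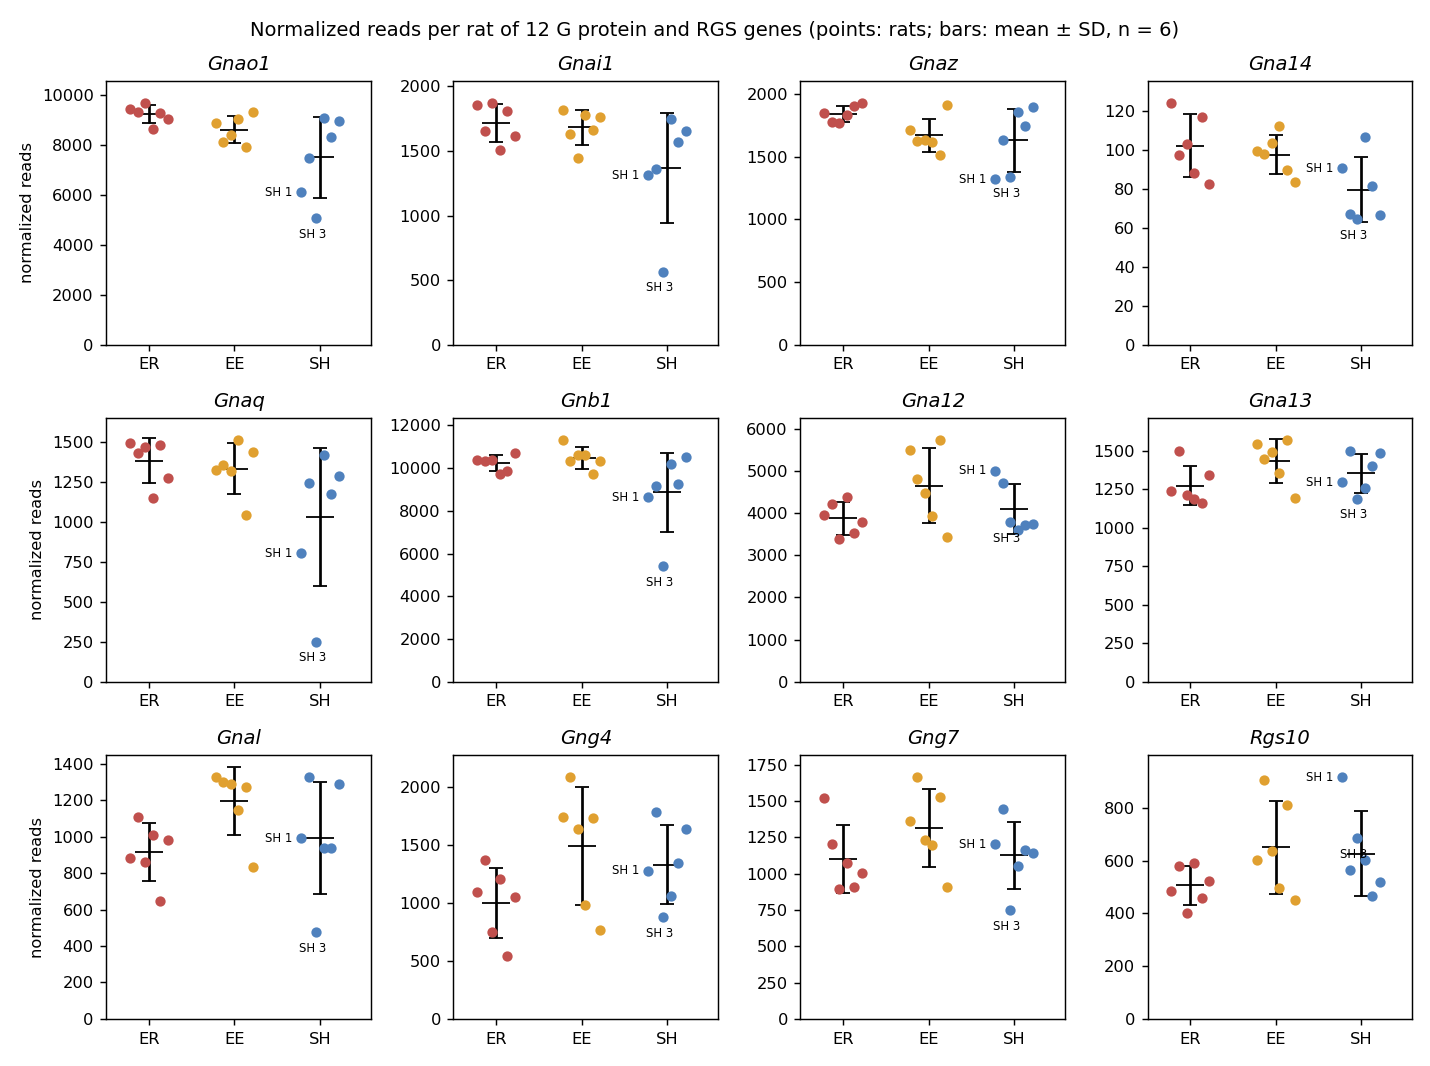
Normalized reads of 12 of the genes (y axes, each from 0) in every rat of ER, EE and SH (x axis); points are rats and bars give mean ± SD of 6 rats, and the 12 genes were chosen after their values had been seen. SH 3 lies far below the other rats for Gnaq (251), Gnai1 (566) and Gnb1 (5402), and for Gnal the EE rats other than EE 6 lie above all ER rats.

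Beta subunits form the stable pair with gamma that binds potassium channels, phospholipase C and Grk2. Gnb1 had 9726, 10368 and 10719 normalized reads (lowest, median, highest) in ER rats, 9730.4, 10468 and 11323 in EE rats and 5402, 9198 and 10534 in SH rats. SH 3 was the lowest by a wide margin, and 4 of 6 SH rats lay below every EE and ER rat. Gnb1 had a log2 fold change of 0.27 (SE 0.11, adjusted p = 0.749) in EEvSH, the smallest p of the members in that comparison, and 0.24 (SE 0.11, adjusted p = 0.567) in ERvSH. Without SH 1 and SH 3 these were 0.10 (SE 0.054, adjusted p = 0.637) and 0.068 (SE 0.054).

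Gnb4, another beta subunit, had 229.6, 353 and 460.2 normalized reads (lowest, median, highest) in EE rats and 103, 259 and 386 in SH rats. The groups overlapped, with SH 2 (386) above 3 of the 6 EE rats and SH 3 (103) below every other rat. Its log2 fold change was 0.54 (SE 0.24, adjusted p = 0.749) in EEvSH, and without SH 1 and SH 3 it was 0.31 (SE 0.19). Gnb2 and Gnb3 had log2 fold changes of −0.044 (SE 0.090) and 0.18 (SE 0.22) in EEvSH, and of 0.095 (SE 0.069) and 0.036 (SE 0.23) with SH 1 and SH 3 left out. Gnb5 differs from the others in pairing with R7 class RGS proteins in place of a gamma subunit. It lay at 1162 ± 61.9 in ER, 1121 ± 60.5 in EE and 1088 ± 61.7 in SH, with a log2 fold change of 0.096 (SE 0.060) in ERvSH.

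Gamma subunits anchor the beta-gamma pair in the membrane by a lipid tail. Gng4 had 544, 1072 and 1369 normalized reads (lowest, median, highest) in ER rats and 768, 1685 and 2089 in EE rats, and SH rats had 878, 1311 and 1785. EE 1, EE 2, EE 3 and EE 5 lay above every ER rat, while EE 4 (986) and EE 6 (768) lay among them. Gng4 had a log2 fold change of −0.56 (SE 0.25, adjusted p = 1.00) in ERvEE, the smallest p of the members there, −0.43 (SE 0.25) in ERvSH and 0.12 (SE 0.25) in EEvSH. With SH 1 and SH 3 left out it was −0.58 (SE 0.26, adjusted p = 0.769) in ERvSH and −0.021 (SE 0.26) in EEvSH.

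Gng7, which in the mouse striatum assembles with Golf alpha, lay at 1102 ± 236 in ER, 1315 ± 267 in EE and 1126 ± 228 in SH, with a log2 fold change of −0.25 (SE 0.16) in ERvEE. Gng2 and Gng3 are widespread neuronal gamma subunits. Gng2 lay at 11309 ± 783 in ER, 10497 ± 995 in EE and 10933 ± 1142 in SH. Gng3 was near equal in ER (3417 ± 219) and EE (3411 ± 199) and had its highest value, 5525, in SH 3. Gng10 had its highest values in SH 1 (3327) and SH 3 (3322), where every other rat had 2520.4 or less. Gng8 lay at 112 ± 34.2 in ER, 121 ± 46.4 in EE and 134 ± 35.0 in SH, and Gng12 at 194 ± 34.6 in ER, 183 ± 37.5 in EE and 179 ± 6.23 in SH. Gng14, Gng5 and Gngt2 were near the floor, with means of 2.98, 6.38 and 11.9. Gngt2, a gamma subunit of cone photoreceptors, had a log2 fold change of 1.30 (SE 0.66, adjusted p = 0.749) in EEvSH and was listed at 0 in SH 1. The Gng14 log2 fold change of −1.32 (SE 0.66, adjusted p = 1.00) in ERvEE compares values of 0, 1.08 and 2.85 (lowest, median, highest) in ER rats with 0, 4.56 and 10.2 in EE rats. SH rats had 0, 1.11 and 11.8, and Gng14 was listed at 0 in ER 1, ER 3, EE 6, SH 4 and SH 6. Gng11, a gamma subunit known from endothelial cells, did not reach the minimum and was not tested.

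RGS genes of the R4 class are small proteins with little beyond the catalytic domain. Over the 9 members of the class the log2 fold change had a median of 0.12 in EEvSH, −0.054 in ERvSH (0.010 without SH 1 and SH 3) and −0.096 in ERvEE. Rgs4, a neuronal regulator of Gi/o and Gq signals, lay at 9005 ± 2046 in ER, 9634 ± 2144 in EE and 7747 ± 1173 in SH, with a log2 fold change of 0.30 (SE 0.15, adjusted p = 0.749) in EEvSH and of 0.19 (SE 0.16) without SH 1 and SH 3. Rgs2, which acts on Gq with preference, lay at 563 ± 46.2 in ER, 607 ± 48.4 in EE and 567 ± 57.7 in SH. Rgs5, a marker of pericytes, lay at 806 ± 242 in ER, 727 ± 146 in EE and 621 ± 257 in SH, and its lowest value, 247, was that of SH 3.

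Rgs1, known from lymphocytes and activated immune cells, had 2.12, 12.1 and 30.9 normalized reads (lowest, median, highest) in ER rats, 14.8, 21.3 and 38.5 in EE rats and 10.6, 22.2 and 41.7 in SH rats. In 5 of 6 ER rats it lay below every EE rat, with ER 4 (30.9) as the exception. For Rgs1 the log2 fold change was −0.94 (SE 0.44, adjusted p = 1.00) in ERvEE and −0.86 (SE 0.44, adjusted p = 0.567) in ERvSH, from few reads. Of the remaining R4 members, Rgs3 had a log2 fold change of −0.28 (SE 0.17) in ERvEE and Rgs16 of −0.26 (SE 0.21) in EEvSH. Rgs8 lay at 1421 ± 166 in ER, 1465 ± 223 in EE and 1347 ± 171 in SH, and Rgs13 and Rgs18 had means of 20.6 and 7.44.

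R7 class RGS proteins pair with Gnb5 and act on Gi/o alpha. Rgs7 lay at 2874 ± 218 in ER, 2636 ± 264 in EE and 2625 ± 224 in SH, with log2 fold changes of 0.13 (SE 0.073, adjusted p = 0.567) in ERvSH and 0.13 (SE 0.073, adjusted p = 1.00) in ERvEE. Rgs6 stood at 0.083 (SE 0.17) in ERvSH, or 0.29 (SE 0.16) without SH 1 and SH 3, and at 0.030 (SE 0.17) in ERvEE. Of the R12 class, Rgs10, which restrains inflammatory activation of microglia in mice, lay at 506 ± 73.1 in ER, 650.2 ± 177 in EE and 626 ± 161 in SH. Its log2 fold change was −0.33 (SE 0.17, adjusted p = 1.00) in ERvEE and −0.28 (SE 0.17) in ERvSH, where it was −0.094 (SE 0.16) without SH 1 and SH 3. Rgs14, which limits synaptic plasticity in mouse hippocampal area CA2, lay at 2015 ± 167 in ER, 1945 ± 58.1 in EE and 2030.2 ± 413 in SH. Without SH 1 and SH 3, its 2 highest SH rats, the Rgs14 log2 fold change in ERvSH was 0.18 (SE 0.071, adjusted p = 0.757), against 0.010 (SE 0.10) with all rats. Rgs12 had a log2 fold change of 0.15 (SE 0.094) in ERvSH, or 0.094 (SE 0.093) without the pair. The RZ class, Rgs17, Rgs19 and Rgs20, had log2 fold changes between −0.11 and 0.11 in the 3 comparisons. Rgs22 was at 16.1 in SH 3, against 80.1 or more in every other rat.

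GRK2 and GRK3 are drawn to active receptors by beta-gamma, whereas GRK5 and GRK6 sit at the membrane. Grk2 is also called beta-adrenergic receptor kinase. It had 4589, 4653 and 4963 normalized reads (lowest, median, highest) in EE rats and 3600.3, 4473 and 4881 in SH rats. Apart from SH 4 (4881), every SH rat lay below every EE rat, and SH 3 and SH 1 (3999) were the lowest. Its log2 fold change was 0.13 (SE 0.063, adjusted p = 0.749) in EEvSH, and without SH 1 and SH 3 it was 0.042 (SE 0.046). Grk3 lay at 661 ± 86.0 in ER, 604 ± 129 in EE and 536 ± 220.3 in SH, with 143 in SH 3. Its log2 fold change in ERvSH was 0.46 (SE 0.29) with all rats and −0.00048 (SE 0.14) without SH 1 and SH 3. Grk5 lay at 307 ± 67.4 in ER, 308 ± 48.9 in EE and 269.7 ± 115 in SH, with 99.9 in SH 3. Grk4 had log2 fold changes of −0.19 (SE 0.21) in ERvSH and −0.076 (SE 0.21) in EEvSH, and Grk6 of −0.073 (SE 0.066) and 0.0075 (SE 0.066). In EEvSH without the pair these were −0.027 (SE 0.19) for Grk4 and 0.015 (SE 0.069) for Grk6.

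**Figure D3:**
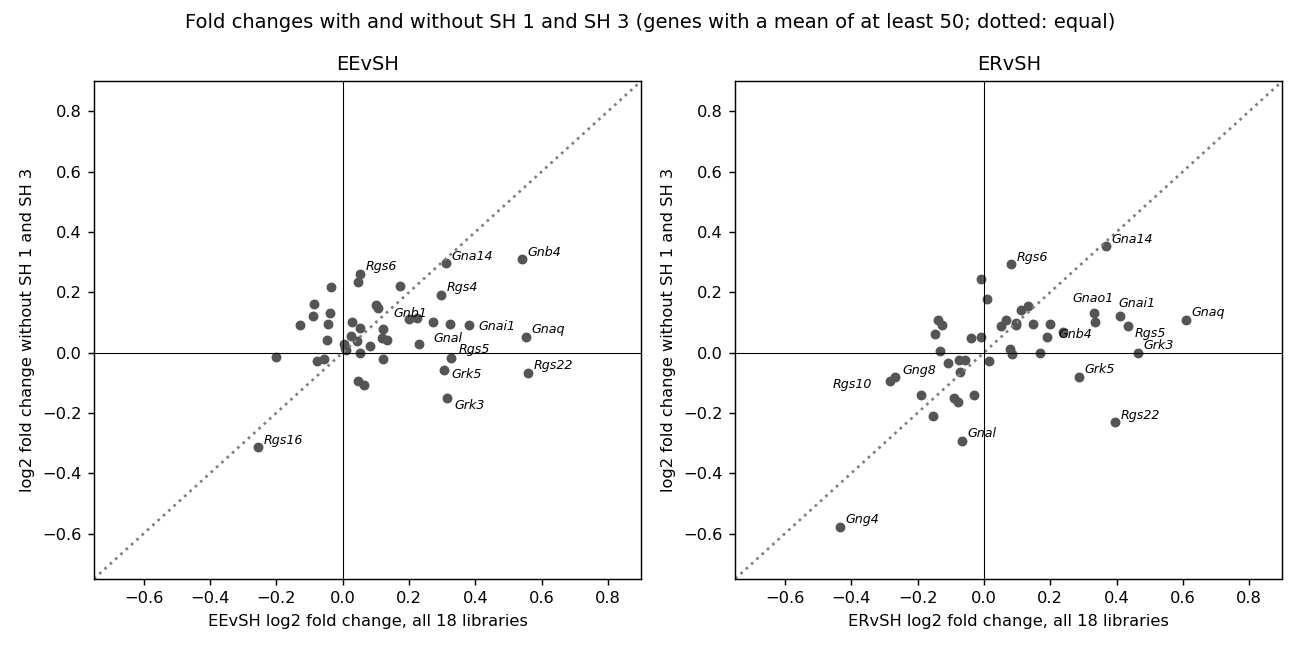
Log2 fold changes of the 45 genes with a mean of at least 50, with all 18 libraries (x axis) and without SH 1 and SH 3 (y axis), in EEvSH and ERvSH; the dotted line marks equal values. Gnaq lies far below the dotted line in both comparisons (0.61 and 0.11 in ERvSH), whereas Gna14 lies near it (0.37 and 0.35).

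SH 3 was not low in all members. Set against the median of SH 2, SH 4, SH 5 and SH 6, SH 3 held 10.1% of that level for Rgs22, 19.9% for Gnaq, 21.5% for Grk3, 34.6% for Grk5, 35.2% for Gnai1, 35.4% for Rgs5, 39.8% for Gnb4 and 42.9% for Gnal. It held 55.5% for Gnb1 and 58.6% for Gnao1. In the other direction it held 185% for Grk4, 175% for the second Gnas row, 172% for Gng3, 167% for Rgs6 and 158% for Gng10. Protein-coding genes were then put into 3 classes of equal size by genomic span in the RefSeq table (GRCr8), a split made after the values had been seen. The median level in SH 3, as a share of those SH rats, was 121% for the shortest genes, 98.0% for the middle class and 74.4% for the longest. Members had 123% (11 genes), 93.7% (13 genes) and 80.9% (24 genes) in the same classes. Single members departed from this order, as Rgs6 (651590 bases) and Rgs7 (429591 bases), both in the longest class, lay at 167% and 114%. What sets SH 3 apart was not tested, and in RNA from whole punches fewer cells of a type and less RNA per cell cannot be told apart.

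**Figure D4:**
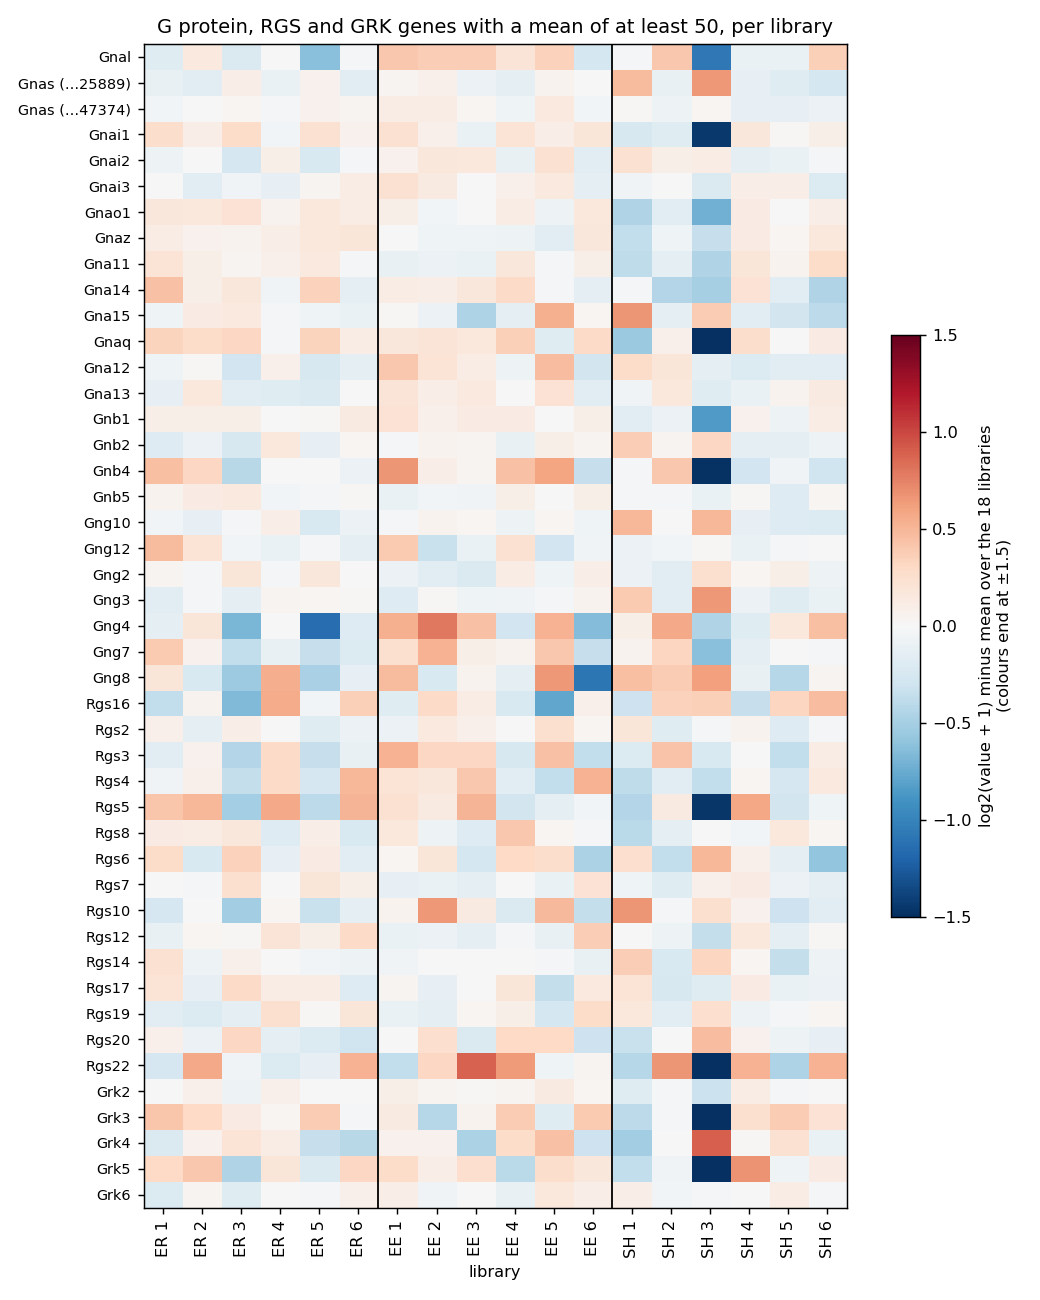
Heat map of the 45 genes with a mean of at least 50 (rows, by role) in the 18 libraries (columns, ER, EE, SH); colour is log2(value + 1) minus the mean of the gene over all libraries, red above and blue below. SH 3 shows the darkest cells, blue for Gnaq, Gnai1, Gnb4, Rgs5, Rgs22, Grk3 and Grk5, and a block of blue in EE 6, ER 3 and ER 5 runs through Gng4, Gna12, Rgs3 and Rgs10.

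Several members with lower values in ERvEE shared their low rats. For Gng4, Gnal, Gng7, Gna12, Gna13, Rgs3, Rgs10 and Gnai2, a group put together after the values had been seen, EE 6 was the lowest EE rat in 8 of 8 genes. ER 3 and ER 5 were the lowest pair of ER rats in 7 of the 8, all but Gna13. These counts depend on how the genes were chosen and do not describe all 31 members with a negative log2 fold change in ERvEE. Rgs1 had other low rats, EE 2 and ER 2, as did Rgs22, EE 1 and ER 1. Gnb4 and Gnb3 also had EE 6 lowest, but their lowest ER pairs were ER 3 with ER 6 and ER 5 with ER 4. EE 6, ER 3 and ER 5 were also low in microglia, oligodendrocyte and astrocyte markers. Summed microglia markers were 3780.5 in ER 3 and 3683 in ER 5, where the other ER rats had 4063 to 5428, and 3644 in EE 6, where the other EE rats had 4806 to 6893. Summed oligodendrocyte markers were 68106 in ER 3 and 73508 in ER 5, and 66692 in EE 6, where the other EE rats had 94977 to 161811. Group medians of the microglia sum were 4394 in ER, 5547 in EE and 4929 in SH, and of the oligodendrocyte sum 83979 in ER, 109946 in EE and 80424 in SH. Summed astrocyte markers were 38427 in ER 3, 37629 in ER 5 and 38615 in EE 6, the 3 lowest of the 18 rats. In ERvEE, 6 of 7 microglia markers and 6 of 6 oligodendrocyte markers had a negative log2 fold change, and 1 of each list had an unadjusted p under 0.05 (lower in ER). Of the astrocyte markers 6 of 6 and of the endothelial markers 4 of 4 were negative, with 2 of each list at an unadjusted p under 0.05. Inhibitory neuron markers were negative in 4 of 6, with 2 lower at an unadjusted p under 0.05. Excitatory neuron markers were positive in 5 of 6, with 1 higher at that p. Mural cell markers were positive in 5 of 8, with 0 at that p. Striatal neuron markers were negative in 5 of 8, with 1 lower at that p. Among all tested genes in ERvEE 50.9% were positive, and 3.66% had an unadjusted p under 0.05 in limma (1.38% higher and 2.28% lower). EE 6 had the highest excitatory marker sum of the 18 rats, 78609. The part of these cells in the lower values of ERvEE was not tested.

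Of 5 members known from a cell class, 4 varied with the markers of that class. Each gene was set against that list alone, so whether it varied more with that class than with others was not tested. In each case the value is the correlation over 18 rats of log2 values after the group means were removed, with a two-sided permutation test and adjustment over the 5 relations examined. The permutation shuffled the deviations over all 18 rats. It made no allowance for the 3 group means removed or for unequal spread between groups, so its p-values may be too small. Gnal varied with 8 markers of striatal neurons, among them Rgs9 (Pearson r = 0.734, permutation p = 4e-05, adjusted p = 0.0002, Spearman coefficient = 0.678, permutation p = 0.00276, adjusted p = 0.0069). Without EE 6 and SH 3, the rats farthest from the median of the marker score, r was 0.629. Gng7 varied with the same markers (r = 0.634, permutation p = 0.00449, adjusted p = 0.00748, Spearman coefficient = 0.626, permutation p = 0.00691, adjusted p = 0.00864), with r = 0.429 without EE 6 and SH 3. Rgs10 varied with 7 microglia markers (r = 0.698, permutation p = 0.00125, adjusted p = 0.00312, Spearman coefficient = 0.707, permutation p = 0.00142, adjusted p = 0.0069), with r = 0.632 without EE 6 and ER 5.

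Rgs5 varied with 8 mural cell markers (r = 0.575, permutation p = 0.0127, adjusted p = 0.0159, Spearman coefficient = 0.647, permutation p = 0.00479, adjusted p = 0.00798), with r = 0.573 without ER 3 and SH 1. Rgs4 did not pass with 6 excitatory neuron markers (r = 0.447, permutation p = 0.0635, adjusted p = 0.0635, Spearman coefficient = 0.385, permutation p = 0.115, adjusted p = 0.115), and its r was 0.604 without EE 4 and SH 3. With SH 1 and SH 3 left out, r was 0.702 for Gnal, 0.562 for Gng7, 0.736 for Rgs10, 0.574 for Rgs5 and 0.446 for Rgs4, and the Spearman coefficient for Rgs5 was 0.468 (permutation p = 0.0696, adjusted p = 0.087). The values of a gene and of its markers come from the same library and share its depth and its punch. The group sums of striatal markers were 3398 to 4549 in ER, 3538 to 5582 in EE and 3796 to 4967 in SH.

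**Figure D5:**
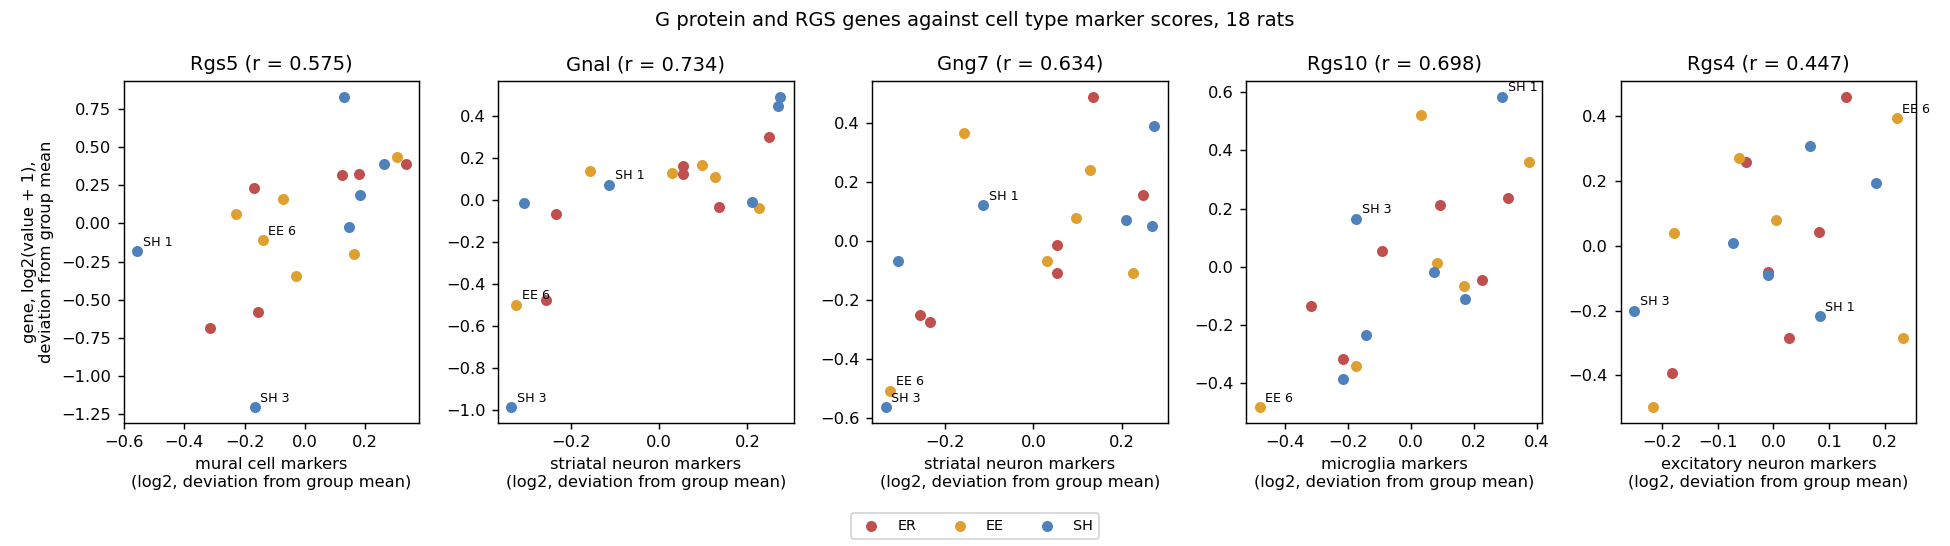
Gene level (y axes, log2 value) against the mean log2 level of a marker list (x axes) in 18 rats, both as deviations from the group mean, for Rgs5, Gnal, Gng7, Rgs10 and Rgs4; colours give ER, EE and SH. Gnal and Rgs10 have the highest r of the 5 panels (0.734 and 0.698), with EE 6 and SH 3 at the low end for Gnal.

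Around the members, 29 tested genes of effectors and partners were read (phospholipases, potassium channels, guanine nucleotide exchange factors, arrestins, chaperones and lipid-modifying enzymes). None passed an adjusted p of 0.05 (limma). At an unadjusted p under 0.05 were 1 gene, higher, in EEvSH, 2 higher and 3 lower in ERvSH, and 1 lower in ERvEE. Among all tested genes 5.87% reached this p in EEvSH, against 7.89% for ERvSH and 3.66% for ERvEE. Kcnj3, a channel subunit opened by beta-gamma, lay at 971 ± 160.1 in ER and 731 ± 268 in SH, with a log2 fold change of 0.49 (SE 0.22, adjusted p = 0.567), or 0.20 (SE 0.16) without SH 1 and SH 3. Gpr158, a receptor that anchors Rgs7 at the membrane, lay at 1592 ± 97.7 in ER and 1152 ± 549.95 in SH (log2 fold change 0.69, SE 0.31, adjusted p = 0.567), or 0.15 (SE 0.13) without the pair. Rgs9, the striatal R7 member, lay at 144 ± 55.1 in ER, 229 ± 57.6 in EE and 255 ± 117 in SH, with log2 fold changes of −0.78 (SE 0.29, adjusted p = 0.567) in ERvSH and −0.70 (SE 0.29, adjusted p = 1.00) in ERvEE, and of −0.98 (SE 0.31, adjusted p = 0.689) in ERvSH without the pair. Rce1, a protease that processes lipid-tailed proteins, was at −0.34 (SE 0.13, adjusted p = 0.567) in ERvSH, or −0.17 (SE 0.11) without the pair, and Gpsm3, a Gi-binding protein of immune cells, at −0.61 (SE 0.29, adjusted p = 0.567). Rap1gap, which inactivates the small GTPase Rap1, was at 0.10 (SE 0.048, adjusted p = 0.749) in EEvSH.

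Of the members, 6 pairs lie next to each other in the RefSeq table of GRCr8 with no other protein-coding gene starting between them, a look-up made after the values had been seen. Rgs5 and Rgs4 had log2 fold changes of 0.33 and 0.30 in EEvSH and 0.43 and 0.20 in ERvSH. Leaving out this pair put Rgs5 at −0.020 in EEvSH and 0.087 in ERvSH, and Rgs4 at 0.19 in EEvSH and 0.095 in ERvSH. Rgs8 and Rgs16 had 0.12 and −0.26 in EEvSH, or 0.049 and −0.31 without the pair, and Rgs13 and Rgs1 had 0.064 and −0.94 in ERvEE. The other pairs were Rgs2 with Rgs13, Gnat2 with Gnai3, and Gna11 with Gna15.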

How the data were processed

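RNA-seq was analysed from the BLA of 18 rats, 6 each in ER, EE and SH, with 1 library per rat. The authors aligned single-end reads with HISAT2 and deposited a signal per gene, reads divided by a DESeq2 size factor. For versions, genome build, annotation and counting tool: not given in the sources used here. The library kit keeps strand, but whether counting used it is not stated, so overlapping antisense reads may be included. All sample columns were used (0 were left out). In all 18 libraries, 100% of the values of up to 1000 reads were whole multiples of a step (within 0.01 read), which gave back reads. The step of EE 3 was so near 1 that rounding could look the same, so edgeR was also run without it.

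limma (3.58.1, R 4.3.3) with trend was fitted to log2(value + 1) of genes with a mean above 1, in a single model of 3 groups, with Benjamini-Hochberg adjustment over 18172 genes. Fold changes on this scale understate changes of low genes. edgeR (4.0.16) and DESeq2 (1.42.0) on recovered reads were alternatives. The fit was tested on simulated data. Correlations used scipy (1.17.1) with 100000 permutations, and figures matplotlib (3.10.9). Sequences came from RefSeq (GRCr8).

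The members and lists were chosen with earlier results of these data known. Per-rat values are given for the 5 members with the smallest p in each comparison, means and SD for members of known role and up to 6 partners. Members named beyond this, promoters and motifs, gene span, neighbours, the 12 plotted genes, the 8 genes with shared low rats, and the alternatives with protein-coding genes alone and without EE 3 were chosen after the values had been seen. A sixth planned relation, Gng11 with endothelial markers, was not run because Gng11 was under the minimum.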

Additional observations from a re-analysis of the deposited data

Results flagged for a closer look

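In 7 of 81 groups of 6 rats (27 members in 3 groups each), 1 rat lay apart from the others by a gap above Dixon's critical value for the range of its group. Chance flags about 1 in 20 groups. SH 3 was that rat in 3 of them, with Gnb1 at 5402 normalized reads (next SH rat 8655), Gnai1 at 566 (next 1312) and Gng14 at 11.8 (next 2.17). EE 6 was apart for Gnal at 836 (next EE rat 1149.7) and, upwards, for Rgs7 at 3149 (next 2688). EE 4 was apart for Grk5 at 214 (next 301) and EE 5 for Rgs1 at 38.5 (next 23.0).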

How the results depend on the processing

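No member was called at an adjusted p of 0.05 under any of the 32 alternatives in each comparison, and none of the 479 alternative values of 15 fold changes, those of the 5 members with the smallest p in each comparison, reversed (lowest adjusted p 0.346). Picking by p in the main fit favours a stable sign. Some other members changed sign without SH 1 and SH 3, such as Rgs5 (0.33 to −0.020) and Gnb2 (−0.044 to 0.095) in EEvSH. Counts of members at an unadjusted p under 0.05 also moved. In EEvSH, 3 became 0 with the groups of the comparison alone and 6 with library quality weights, and leaving out a single rat gave 0 (without EE 1) to 9 (without EE 6), with 5 without SH 2 or SH 5 and 7 without SH 4 or SH 6. In ERvSH, 6 became 1 with the groups of the comparison alone and 2 with edgeR, with DESeq2 and with edgeR without EE 3, and leaving out a single rat gave 1 (without ER 1) to 9 (without SH 4), with 2 without ER 5 or SH 1 and 3 without ER 2 or ER 6. In ERvEE, 3 became 8 with the groups of the comparison alone, 13 with weights and 8 without SH 1 and SH 3, and leaving out a single rat gave 0 (without EE 1, EE 5 or ER 3) to 11 (without EE 6), with 1 without ER 5, EE 2 or EE 3 and 6 without SH 3. The cause was not tested. The median of the members ranged from 0.069 to 0.14 in EEvSH, from 0.013 to 0.073 in ERvSH and from −0.061 to −0.021 in ERvEE when a single rat was left out.

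Replicate numbers did not pair the rats, since same-numbered rats correlated at −0.083 to 0.070 in EEvSH, −0.031 to 0.13 in ERvSH and −0.071 to 0.050 in ERvEE. With the replicate block, 4 members in EEvSH, 6 in ERvSH and 3 in ERvEE had an unadjusted p under 0.05 and 0 were called. With 6 rats a group, members with few reads had wide errors, with a log2 standard error of 0.66 for Gng14 and 0.67 for Gnat2, against 0.051 for the main Gnas row.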
